A study of Mus musculus with 4 samples.

Results

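The genes described here encode the proteins that carry a signal from the T cell antigen receptor into the cell, together with the proteins that restrain it. The list names 46 genes by their known role and was chosen with earlier results of these data known. Of the 46 genes, 45 were measured by a probe set, a group of short array probes for 1 transcript, that names that gene alone. Lck was not analysed here. For each gene the probe set with the highest mean signal was used, and all 45 passed the filter on low values, out of 12545 genes tested in all. 

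The samples were T cells of KO mice and of wild-type (WT) mice, on 2 single-colour Affymetrix arrays each. KO cells were naive T cells isolated from the spleen of mice labelled KO 1 and KO 2, and WT cells those of mice labelled WT 1 and WT 2. Cells of both genotypes were kept for 3 days under Treg-inducing conditions, meant to turn naive T cells into regulatory T cells (Treg cells). The gene removed in KO mice, the strain, the age and the agents used for induction are not given in the sources used here, and nothing says how many mice or cultures stand behind an array, so p-values measure the spread between these arrays, which may be partly technical.

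When the receptor binds antigen, kinases of the Src family phosphorylate its CD3 and zeta chains, and Zap70 docks there. Zap70 phosphorylates the scaffolds LAT and SLP-76, on which phospholipase C, Vav and the Grb2 and Sos proteins gather. From this complex the signal runs to calcium, calcineurin and NFAT, to protein kinase C theta and NF-kappaB, and to Ras. Phosphatases, ubiquitin ligases and diacylglycerol kinases limit the signal at each step, and in Treg cells the strength of the signal bears on the expression of Foxp3.

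Values are MAS5 signals, which the authors deposited on a linear scale, with the arrays scaled alike. A fold change is the difference of the mean log2(signal + 16), KO minus WT, and its error is the standard error of limma's moderated fit. A gene is called, and is said to have risen or fallen, where the Benjamini-Hochberg adjusted p over all 27022 tested probe sets is under 0.05. Signals of different probe sets are not comparable with each other, so levels are compared only within a gene, and a sum over a list is set only against the sum of the same probe sets on other arrays.

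The signalling genes moved in both directions in KO cells, with more falls than rises. Of the 45 genes 16 fell, 6 rose and 23 were not called, so that 48.9% were called, where 20.4% of all tested genes were. The falls included Sit1, Fyb, Nfatc1, Rhoh, Txk, Cd5 and Dgkz, and the rises were those of Malt1, Tec, Grb2, Themis, Nfatc2 and Zap70. Falls made up 35.6% of the members, where 9.95% of all tested genes were called lower, and rises 13.3%, where 10.5% of all tested genes were called higher. Members were bright, and bright genes were called more often: among the 6584 genes at least as bright as the dimmest member, Grap2, 27.6% were called, 15% lower and 12.6% higher. The members' median log2 fold change was -0.202, against -0.0255 over all tested genes and -0.0525 over the genes at least as bright. On 39 of the 45 genes the KO arrays did not overlap the WT arrays (86.7%), which held for 62.8% of all tested genes, with KO arrays above WT for 13 members (29.8% of all tested genes) and below for 26 (33% of all tested genes).

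**Figure D1:**
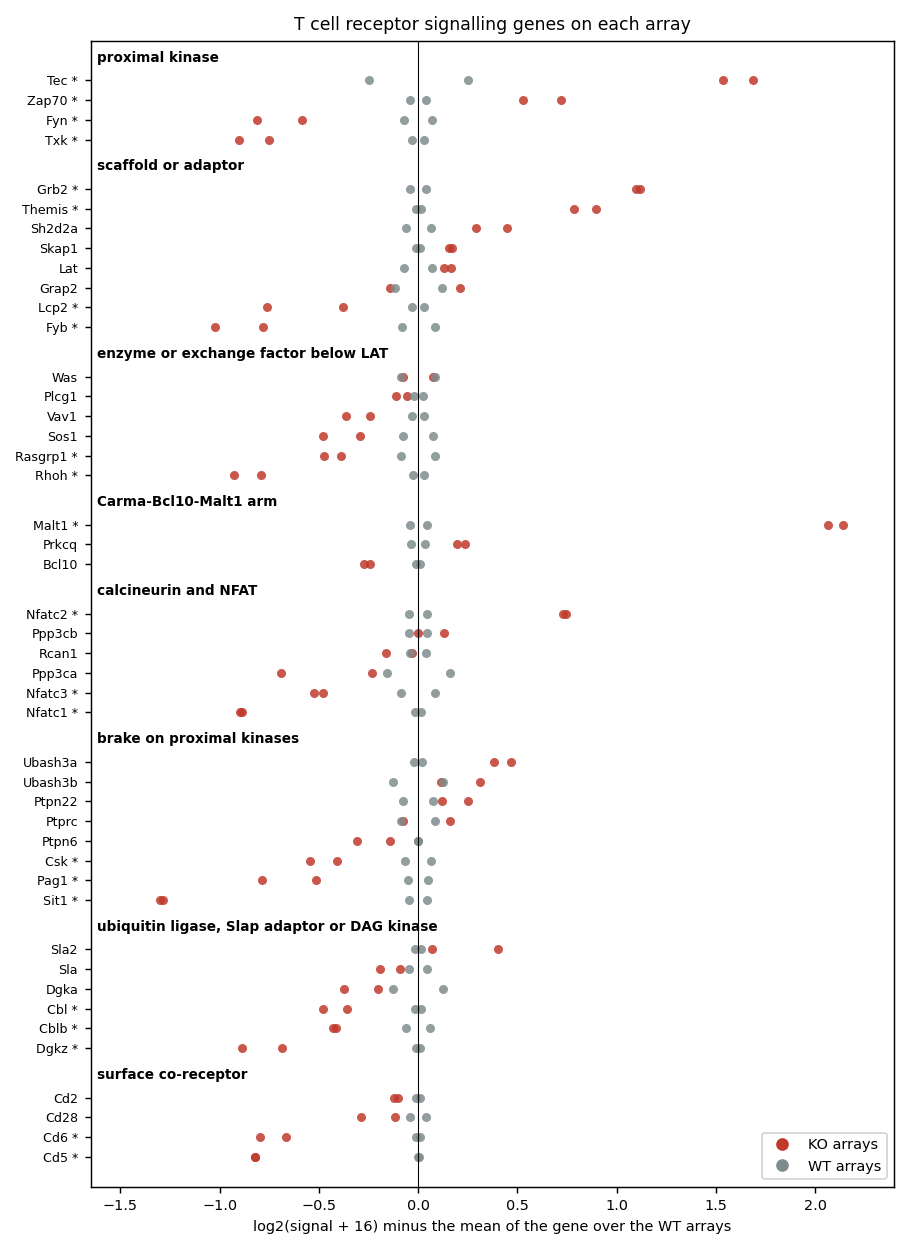
Each row is a gene, grouped by role, and each point an array: the log2(signal + 16) of the array minus the mean of that gene over the WT arrays (2 KO and 2 WT arrays, an asterisk marks a called gene). KO points lie to the left of the WT points for 26 genes and to the right for 13, with Malt1 and Tec farthest to the right and Sit1 farthest to the left.

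The changes were mostly moderate. On the probe sets used, only 4 of the 45 members (8.89%) differed by a log2 fold change of 1 or more. They were Malt1, Tec, Grb2 and Sit1, and the share over all tested genes was 10.6%. Replicate arrays lay close together: the median absolute log2 difference of a member was 0.132 between the KO arrays and 0.0853 between the WT arrays, while its median absolute log2 fold change was 0.42. Over all tested genes these medians were 0.197, 0.168 and 0.307. Over the genes at least as bright as the dimmest member they were 0.14, 0.116 and 0.26. The counts depend on how the variance is modelled and on a WT array. With eBayes run without an intensity trend, 3 rises (Malt1, Tec and Grb2) and 1 fall (Sit1) were called, and leaving out WT array 2 left 10 of the 16 falls and all 6 rises.

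**Figure D2:**
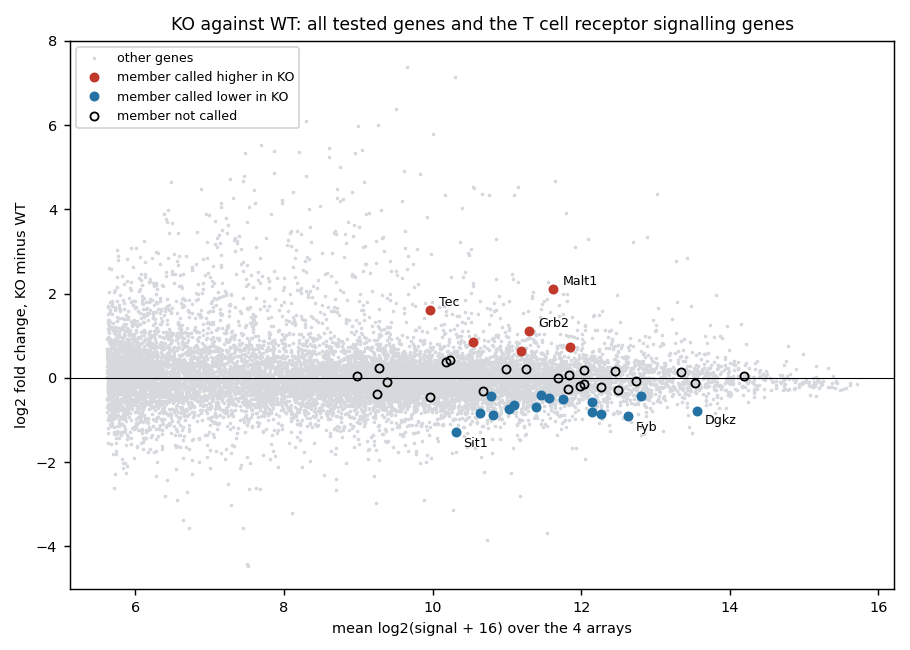
Log2 fold change, KO minus WT, against the mean log2(signal + 16) over the 4 arrays, for each of 12545 tested genes (grey) and the 45 signalling genes (coloured by call, open where not called). The members lie in the brighter part of the range, and most of the called ones lie below 0.

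The proximal kinases split in direction, and all 4 measured were called, where 20.4% of all tested genes were. Tec, a kinase of the Tec family that phosphorylates phospholipase C, had a signal of 1821 and 1636 in KO cells, against 463 and 661 in WT cells. The KO arrays were both well above the WT arrays, by 3.06 times (log2 fold change 1.61 ± 0.18, adjusted p = 0.000697). Zap70, the kinase that binds the phosphorylated receptor chains, had 3087 and 2699 in KO cells, against 1815 and 1917 in WT cells. It rose by 1.54 times (log2 fold change 0.63 ± 0.12, adjusted p = 0.00847) on its brightest probe set, while its dimmest was called lower (log2 fold change -1.67 ± 0.37, adjusted p = 0.0168), and the mean over its probe sets turned the sign (log2 fold change -0.27) and was not called. The other pair fell. Txk, another Tec family kinase, stood at 1249 and 1121 in KO cells, against 2158 and 2067 in WT cells, with KO cells below WT on both arrays (log2 fold change -0.83 ± 0.12, adjusted p = 0.00265). Fyn, a Src family kinase that phosphorylates the receptor chains, was at 1932 and 2268 in KO cells, against 3583 and 3239.8 in WT cells, and it fell as well (log2 fold change -0.70 ± 0.12, adjusted p = 0.00623).

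Txk and Tec are related kinases, and their genes lie next to each other on chromosome 5, with 0 protein-coding genes between them in the RefSeq gene table, yet Txk fell and Tec rose. A pair of fallen surface receptor genes, Cd5 and Cd6 on chromosome 19, are also neighbours with 0 protein-coding genes between them. No other pair of tested members lay within 10 protein-coding genes of each other. The 250 bases before the start of Tec and Txk, which moved in opposite directions side by side, and of Sit1 and Cd5, which fell, are printed from RefSeq (GRCm38.p6) on the gene's own strand. They are chr5:72868449-72868698 for Tec, chr5:72752778-72753027 for Txk (the first of 2 starts listed), chr4:43483710-43483959 for Sit1 and chr19:10738975-10739224 for Cd5, all of them on the minus strand. Capitals mark matches to AGGAAG, a core bound by Ets family factors, on either strand.
Tec: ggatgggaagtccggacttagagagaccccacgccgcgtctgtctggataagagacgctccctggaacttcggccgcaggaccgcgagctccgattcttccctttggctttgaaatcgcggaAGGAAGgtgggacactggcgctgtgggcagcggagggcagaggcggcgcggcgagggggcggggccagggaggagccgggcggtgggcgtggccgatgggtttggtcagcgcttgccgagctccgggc
Txk: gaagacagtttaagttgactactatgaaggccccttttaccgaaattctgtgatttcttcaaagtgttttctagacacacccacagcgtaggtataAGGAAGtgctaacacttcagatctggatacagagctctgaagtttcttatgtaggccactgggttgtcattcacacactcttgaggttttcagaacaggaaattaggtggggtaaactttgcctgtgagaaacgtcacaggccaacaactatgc
Sit1: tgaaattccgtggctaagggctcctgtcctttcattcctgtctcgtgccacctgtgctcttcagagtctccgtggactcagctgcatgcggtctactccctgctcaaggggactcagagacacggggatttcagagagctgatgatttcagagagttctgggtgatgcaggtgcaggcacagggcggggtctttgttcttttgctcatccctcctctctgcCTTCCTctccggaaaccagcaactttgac
Cd5: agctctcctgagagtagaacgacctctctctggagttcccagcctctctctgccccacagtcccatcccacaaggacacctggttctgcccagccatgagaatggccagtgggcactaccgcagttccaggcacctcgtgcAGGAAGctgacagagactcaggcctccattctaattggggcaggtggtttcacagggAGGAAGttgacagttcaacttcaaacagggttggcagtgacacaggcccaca
Each of the 4 stretches holds the core, Cd5 with 2 matches and the others with 1. RefSeq promoters were found for 35 of the 45 members, and the core was present in 7 of 13 genes that fell, 3 of 5 that rose and 10 of 17 that were not called, while 29.5% of all 32851 promoters hold it. The fallen and the risen genes thus did not separate by it. Matches are letters in a window and not sites of binding. The cores GGAAAA (NFAT), TGTGGT (Runx), TGANTCA (AP-1), TGTTTAC (Foxo) and CTTTGAT (Tcf and Lef) were searched on both strands too and have 0 matches in the 4 stretches. They stand in 20.4%, 14%, 6.75%, 3.17% and 3.21% of all promoters, in that order. Overlap between the motifs was allowed.

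Scaffolds and adaptors also went both ways. Of 8 tested, Grb2 and Themis rose, Fyb and Lcp2 fell and 4 were not called. The share called was 50%, against 20.4% of all tested genes and 27.6% of those at least as bright as the dimmest member. Grb2, the adaptor that brings the Ras activator Sos to LAT, had 3666 and 3713 in KO cells, against 1658 and 1752 in WT cells. It rose by 2.15 times (log2 fold change 1.11 ± 0.11, adjusted p = 0.000319), and its second probe set was called higher too. Themis, a T cell protein that binds Grb2 and is needed for thymocyte selection, had 2056 and 1901 in KO cells, against 1087 and 1106 in WT cells, with the KO arrays above both WT arrays (log2 fold change 0.84 ± 0.12, adjusted p = 0.00228).

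Fyb, which encodes ADAP, the adaptor that links SLP-76 to integrin activation, had the larger fall, with 5029.9 and 4252 in KO cells, against 8177 and 9179 in WT cells (log2 fold change -0.90 ± 0.11, adjusted p = 0.00128). The second probe set of Fyb was called lower too, with a larger fall (log2 fold change -1.35 ± 0.11, adjusted p = 0.000113). Lcp2, which encodes SLP-76 itself, had 4251 and 3255 in KO cells, against 5641 and 5404 in WT cells, a fall by 1.48 times (log2 fold change -0.57 ± 0.13, adjusted p = 0.0224). The KO arrays differed from each other more for Lcp2 than for most members, and the call was lost without WT array 1 and without WT array 2. Skap1, which partners ADAP, was at 5924 and 5981 in KO cells, against 5343 and 5275 in WT cells and was not called (log2 fold change 0.16 ± 0.0914, adjusted p = 0.262).

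LAT, the membrane scaffold of the pathway, did not pass the test. Its gene Lat had 10829 and 11089 in KO cells, against 10392 and 9418 in WT cells, with both KO arrays above the WT arrays (log2 fold change 0.15 ± 0.0915, adjusted p = 0.315). Grap2, which encodes Gads, the link between LAT and SLP-76, overlapped between the groups, at 562 and 436 in KO cells, against 443 and 526 in WT cells. Sh2d2a, which encodes the adaptor TSAd, was at 1234 and 1378 in KO cells, against 1052 and 963 in WT cells, and its KO arrays lay above WT without a call (log2 fold change 0.37 ± 0.13, adjusted p = 0.0966).

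Of 6 genes listed together as enzymes and exchange factors below LAT, 2 fell and 4 were not called. The share called was 33.3%, against 20.4% of all tested genes and 27.6% of those at least as bright as the dimmest member. None rose by limma (0 at an unadjusted p under 0.05). The name of the list does not match Rhoh, whose product acts at the receptor, or Was, which encodes an actin regulator. Of the 2 falls, those of Rhoh and Rasgrp1, only that of Rasgrp1 is of a gene that matches the name. Rhoh encodes a GTPase that lacks enzymatic activity and is needed to bring Zap70 and Lck to the receptor. It had 3474 and 3819 in KO cells, against 6498 and 6757 in WT cells, lower by 1.82 times with well separated groups (log2 fold change -0.86 ± 0.0998, adjusted p = 0.000825). Rasgrp1, the diacylglycerol-dependent activator of Ras, had 5973 and 6336 in KO cells, against 7820.0 and 8802 in WT cells, a smaller fall (log2 fold change -0.43 ± 0.0998, adjusted p = 0.0212) that was lost without WT array 2 and when the probe sets of the gene were averaged. Sos1, the Ras activator that binds Grb2, was at 481 and 551 in KO cells, against 641 and 716 in WT cells, below WT on both arrays but not called (log2 fold change -0.39 ± 0.16, adjusted p = 0.141). Among Grb2, Rasgrp1 and Sos1, Grb2 thus rose, Rasgrp1 fell and Sos1 was not called. Of the diacylglycerol kinase genes, described below, Dgkz fell and Dgka was not called. Among 10 other tested genes of Ras and the MAP kinases, 1 rose, 1 fell (Mapk14) and 8 were not called. The 20% called are near the 20.4% of all tested genes. The rise was that of the GTPase gene Nras, with 3457 and 3945 in KO cells, against 2676 and 2098 in WT cells (log2 fold change 0.64 ± 0.14, adjusted p = 0.0171).

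The other 3 genes of this group were not called. Vav1, an exchange factor for Rac, was at -0.30 ± 0.12 (log2 fold change ± SE, adjusted p = 0.122). Plcg1, the phospholipase that makes diacylglycerol and inositol trisphosphate, was at -0.0815 ± 0.0906, with signals of 6475 and 6729 in KO cells, against 7094 and 6878 in WT cells. Was, which encodes the actin regulator WASP, had 3105 and 3456 in KO cells, against 3477 and 3089.7 in WT cells, and its groups overlapped.

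Malt1 had the largest change of all members. It encodes the paracaspase that works with Bcl10 to activate NF-kappaB and cleaves several regulators of the T cell response. Its signal was 6367 and 6701 in KO cells, against 1464 and 1554 in WT cells, which was 4.3 times as high (log2 fold change 2.10 ± 0.10, adjusted p = 1.43e-05). Both other probe sets of Malt1 were called higher as well, with signals of 939 and 1450.1 in KO cells, against 409 and 549 in WT cells on the second (log2 fold change 1.27 ± 0.23, adjusted p = 0.00685). Bcl10, the adaptor bound to Malt1, had 3273 and 3343 in KO cells, against 3977 and 3927 in WT cells on its brightest probe set, so that its KO arrays were below WT without a call (log2 fold change -0.26 ± 0.0981, adjusted p = 0.114). Prkcq, which encodes protein kinase C theta, the kinase above the complex, was at 2584 and 2659 in KO cells, against 2196 and 2310.3 in WT cells and was not called either (log2 fold change 0.22 ± 0.11, adjusted p = 0.207). The rise of Malt1 was thus not accompanied by a called rise of Bcl10 or Prkcq.

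NFAT factors, which calcineurin sends to the nucleus, moved in opposite directions. Nfatc2 (NFAT1) had 4730.1 and 4788 in KO cells, against 2943 and 2756 in WT cells, and it rose by 1.67 times (log2 fold change 0.74 ± 0.10, adjusted p = 0.00179). Nfatc1 (NFAT2), whose transcription is itself raised by NFAT, had 1309 and 1298 in KO cells, against 2462 and 2407 in WT cells, and it fell by 1.86 times (log2 fold change -0.89 ± 0.11, adjusted p = 0.00121). Nfatc3 (NFAT4) had 2923 and 2832 in KO cells, against 3847 and 4335 in WT cells and fell by less (log2 fold change -0.50 ± 0.11, adjusted p = 0.0152), a call lost without WT array 2 and without the probe sets that can bind several transcripts. In each of these genes the KO arrays stood on their own side of the WT arrays, and in each the call was lost, with the sign kept, when the probe sets of the gene were averaged.

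Calcineurin genes were not called. The catalytic subunit gene Ppp3ca had 981 and 709 in KO cells, against 1034 and 1291 in WT cells, with KO array 2 lowest (log2 fold change -0.46 ± 0.19, adjusted p = 0.132), and it was called lower when KO array 1 was left out (log2 fold change -0.69, adjusted p = 0.0383). Ppp3cb, the other catalytic subunit gene of the list, overlapped between the groups at 3885 and 3549 in KO cells, against 3434 and 3666 in WT cells. Rcan1, an inhibitor of calcineurin whose transcription responds to NFAT, was at 600.1 and 658 in KO cells, against 655 and 691 in WT cells, where the groups overlapped too.

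**Figure D3:**
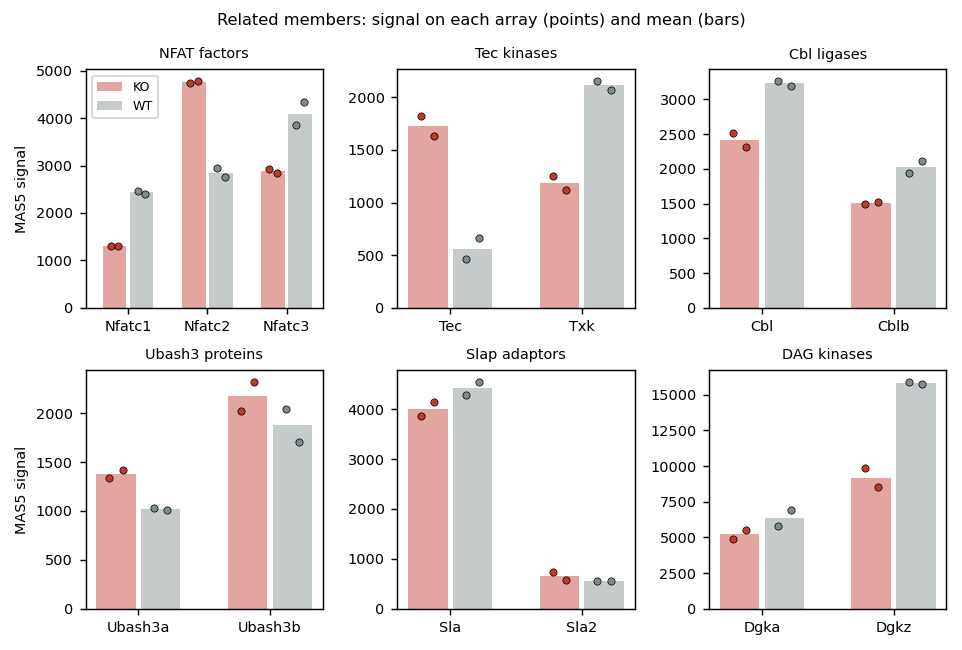
MAS5 signal of related members on each array (points) with the mean of the 2 arrays of each genotype (bars), KO left of WT. Nfatc2 and Tec are higher in KO cells while Nfatc1, Nfatc3 and Txk are lower, Cbl, Cblb and Dgkz are lower, and heights of different genes are not comparable.

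Of 8 genes whose products hold back the proximal kinases, 3 fell, none rose by limma (1 at an unadjusted p under 0.05) and 5 were not called. Sit1 encodes a transmembrane adaptor that recruits the phosphatase SHP2 and Csk. On the probe sets used it showed the largest fall of all members. It had 792 and 800.3 in KO cells, against 2037 and 1911 in WT cells, lower by 2.45 times (log2 fold change -1.29 ± 0.12, adjusted p = 0.00031). Pag1, another membrane adaptor that anchors Csk, had 1909 and 1580.0 in KO cells, against 2835 and 2639 in WT cells (log2 fold change -0.65 ± 0.13, adjusted p = 0.0106). Csk, the kinase that switches Src family kinases off, had 2683 and 2437 in KO cells, against 3733 and 3400.1 in WT cells (log2 fold change -0.48 ± 0.11, adjusted p = 0.0217). So Csk fell together with both of the listed adaptors that bind it. The call of Pag1 was lost with its probe sets averaged. Without WT array 1 the calls of Pag1 and Csk were lost, and Csk also lost its call without WT array 2 or KO array 2.

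Phosphatases of this group were not called. Ptprc, which encodes CD45, a phosphatase that both primes and restrains Src family kinases, had 20501 and 17412 in KO cells, against 17278 and 19485 in WT cells, and the groups overlapped. Ptpn6, which encodes SHP1, was at 4809 and 4290.3 in KO cells, against 5299 and 5313 in WT cells (log2 fold change -0.22 ± 0.10, adjusted p = 0.173). Ptpn22, which dephosphorylates Src family kinases and Zap70, was at 4661 and 4252 in KO cells, against 3719 and 4122 in WT cells (log2 fold change 0.18 ± 0.11, adjusted p = 0.282). Ubash3a and Ubash3b dephosphorylate or bind proximal kinases as brakes. Ubash3a had 1334 and 1418 in KO cells, against 1035 and 1006 in WT cells, and with adjusted p = 0.0506 it was the member closest to a call without passing (0.42 ± 0.12 as log2 fold change ± SE), while on the other side of the threshold Cblb passed at adjusted p = 0.0408. Ubash3b overlapped between the groups, at 2023 and 2322 in KO cells, against 2039.9 and 1709 in WT cells.

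Both listed ubiquitin ligases of the Cbl family, which mark active receptors and kinases for degradation, fell on their brightest probe set. Cbl had 2518 and 2313 in KO cells, against 3269 and 3195 in WT cells (log2 fold change -0.42 ± 0.11, adjusted p = 0.0303), and Cblb, a gatekeeper of the need for costimulation, had 1501 and 1518 in KO cells, against 1939.6 and 2112 in WT cells (log2 fold change -0.42 ± 0.12, adjusted p = 0.0408). Both falls were small, and both calls were lost when WT array 1, WT array 2 or KO array 2 was left out. That of Cblb was also lost without KO array 1, and both were lost when each array was centred on its median. The other probe sets of Cbl were not called and lay above 0 (log2 fold changes 0.17 and 0.49), and the mean over its probe sets turned the sign (0.0812).

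Dgkz, a kinase that removes diacylglycerol and so limits Ras activation, had 9831 and 8549 in KO cells, against 15917 and 15729.9 in WT cells, lower by 1.72 times (log2 fold change -0.79 ± 0.0964, adjusted p = 0.00109). Its relative Dgka was at 4901 and 5520.1 in KO cells, against 5819 and 6948 in WT cells, with KO arrays below WT and no call (log2 fold change -0.29 ± 0.12, adjusted p = 0.134). The Slap adaptors, which help Cbl to remove the receptor from the surface, were not called: Sla was at -0.14 ± 0.10 and Sla2 at 0.24 ± 0.17 (log2 fold change ± SE). Of the 6 genes of the Cbl, Slap and diacylglycerol kinase group, 3 therefore fell, none rose by limma (0 at an unadjusted p under 0.05) and 3 were not called. Together with the group above, 6 of 14 genes listed as brakes fell (42.9%). Of all 45 members 35.6% were called lower, as were 9.95% of all tested genes and 15% of the genes at least as bright. Of these 14, 2 were called lower without WT array 1 and 3 without WT array 2 or without KO array 2, and Sit1 alone when the intensity trend was left out.

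Surface receptors that tune the signal were below WT on both KO arrays for all 4 genes, of which 2 were called. Such a position held for 26 of the 45 members and for 33% of all tested genes. Of the 4 genes 50% were called lower, as were 9.95% of all tested genes and 15% of the genes at least as bright as the dimmest member. Cd5, an inhibitory receptor whose level follows the strength of receptor signalling, had 3377 and 3375 in KO cells, against 5991 and 5969 in WT cells (log2 fold change -0.82 ± 0.0944, adjusted p = 0.00079). Replicates were very close here. Cd6, its relative and genomic neighbour, had 1674 and 1526 in KO cells, against 2685 and 2645 in WT cells (log2 fold change -0.73 ± 0.11, adjusted p = 0.00335). Cd28, the main costimulatory receptor, was at 3539 and 3998 in KO cells, against 4207 and 4457 in WT cells (log2 fold change -0.20 ± 0.11, adjusted p = 0.239), and Cd2, an adhesion receptor, at 11241 and 11411 in KO cells, against 12172 and 12313 in WT cells (log2 fold change -0.11 ± 0.0834, adjusted p = 0.403). Neither was called.

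Several members were measured by more than 1 probe set, and these did not always move alike. The 45 genes had 109 probe sets, of which 101 were tested, and 31 genes had over 1 tested. In 5 of these, Fyn, Grb2, Fyb, Malt1 and Dgkz, every tested probe set was called in the same direction. In 15 only some were called, and in 11 none was. For 14 of the 31 genes the fold changes of the tested probe sets differed in sign, and for Zap70 the calls were opposite. Its dimmest probe set had 63.8 and 112 in KO cells, against 428 and 217 in WT cells and fell (log2 fold change -1.67 ± 0.37, adjusted p = 0.0168), against the rise of the brightest, and the remaining probe set was not called (log2 fold change 0.23 ± 0.12, adjusted p = 0.249).

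In 4 genes the brightest probe set was not called and another was called lower, namely Ubash3a, Ubash3b, Ptprc and Bcl10. For Ubash3a the dimmer probe set had 70.1 and 106 in KO cells, against 166 and 279 in WT cells (log2 fold change -1.18 ± 0.32, adjusted p = 0.0401), opposite in sign to the brightest. For Ubash3b the dimmest probe set had 824 and 875 in KO cells, against 1431 and 1288 in WT cells (log2 fold change -0.67 ± 0.13, adjusted p = 0.011). For Ptprc the dimmer probe set had 172 and 187 in KO cells, against 276 and 450.3 in WT cells (log2 fold change -0.92 ± 0.26, adjusted p = 0.0436). Whether these probe sets read other transcripts of the genes was not tested. The falls of Nfatc1 and of Cbl rest on the brightest of 5 and 3 probe sets and the rise of Nfatc2 on the brightest of 6, of which 4 were tested. When the log2 values of all probe sets of a gene were averaged, the calls of Zap70, Nfatc1, Nfatc2, Nfatc3, Pag1, Rasgrp1 and Cbl were lost, and Zap70 (log2 fold change -0.27) and Cbl (0.0812) changed sign.

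**Figure D4:**
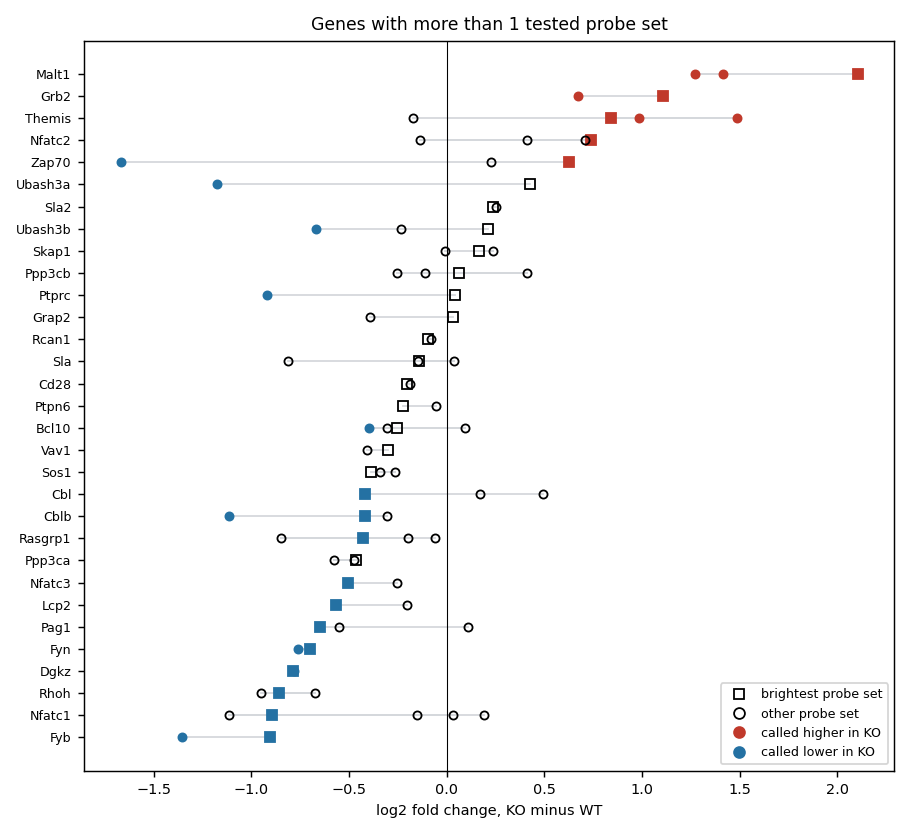
Log2 fold change, KO minus WT, of every tested probe set of the 31 genes with more than 1, one gene per row. Squares are the brightest probe set and circles the others, filled where called. Malt1, Grb2, Fyn, Dgkz and Fyb have all their points filled on the same side, while the points of Zap70 are filled on opposite sides.

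Other genes of the pathway, listed for their role but with earlier results of these data known, moved both ways. Of 82 such genes 69 were tested, of which 10 rose (14.5%), 8 fell (11.6%) and 51 were not called, at a median log2 fold change of -0.0132. In all 26.1% were called, which is near the shares of 20.4% of all tested genes and 27.6% of the genes at least as bright as the dimmest member. Some of the 69 genes, such as Akap5 and Lax1, were dimmer than that member, so the second share is not matched to them in brightness. The 8 falls became 3 without WT array 1, 4 without WT array 2 and 5 without KO array 1. For the receptor itself, Cd3g had 21527 and 20722 in KO cells, against 8978 and 8666 in WT cells (log2 fold change 1.26 ± 0.0838, adjusted p = 5.29e-05). Cd3e rose too, with 3062 and 3573 in KO cells, against 1819 and 1722 in WT cells (0.90 ± 0.12 as log2 fold change ± SE), and Cd3d rose by less (0.35 ± 0.0931). The zeta chain gene Cd247 (0.14 ± 0.10), the co-receptor gene Cd4 (-0.33 ± 0.17) and the adaptor genes Trat1 (-0.30 ± 0.30) and Lax1 (0.12 ± 0.27) were not called. Cd3d, Cd3e and Cd3g thus rose in RNA of the same cultures in which Cd5, Sit1, Fyb and Rhoh fell. Whether the same cells carried both changes was not tested.

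Outside the receptor the called rises with the smallest p-values were those of ubiquitin ligases and adaptors. Nedd4, a ubiquitin ligase, had 1607 and 1181 in KO cells, against 175 and 222 in WT cells (log2 fold change 2.71 ± 0.20, adjusted p = 9.66e-05). Rnf128, which encodes GRAIL, a ligase linked to T cell anergy, had 589 and 341 in KO cells, against 84.2 and 96.9 in WT cells (log2 fold change 2.13 ± 0.29, adjusted p = 0.00167). The adaptor genes Gab2 (1.32 ± 0.22) and Sh3bp2 (0.90 ± 0.16) rose as well. So Cbl and Cblb fell on their brightest probe sets while the ligase genes Nedd4 and Rnf128 rose. The ligase genes Itch (-0.11 ± 0.14) and Traf6 (-0.39 ± 0.12 as log2 fold change ± SE) were not called. Of the falls, Rasa3, which switches off Ras and Rap GTPases, had 3885 and 3321 in KO cells, against 7513 and 8039 in WT cells (log2 fold change -1.11 ± 0.11, adjusted p = 0.000375). Itpr2, a calcium channel opened by inositol trisphosphate, fell (-0.88 ± 0.14), and so did Mapk14, which encodes the kinase p38 alpha (-0.58 ± 0.11), Cd2ap (-0.77 ± 0.15), the signalling inhibitor gene Spry1 (-0.74 ± 0.17) and Vav3 (-0.85 ± 0.20), each given as log2 fold change ± SE. None of 9 tested genes of the inhibitor-of-kappaB kinase and PI3 kinase group was called by limma (2 at an unadjusted p under 0.05). Of 15 tested genes listed as further brakes, which are not members, 3 rose (Nedd4, Rnf128 and Sh3bp2). In that list 2 fell (Rasa3 and Spry1) and 10 were not called, so that 33.3% were called, against 20.4% of all tested genes.

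Transcripts of other cell types moved with the genotype in the same samples. All 12 listed mast cell and basophil markers were tested, and 11 rose. Their summed signal was 45577 and 30639 in KO cells, against 937 and 1391 in WT cells, and the mast cell protease genes Mcpt1 and Mcpt2 made up 67.2% and 68.8% of the KO sums. Both CD8 genes rose, with sums of 2653 and 2196 in KO cells, against 881 and 924 in WT cells. Of 7 tested myeloid markers 4 rose, and none of 6 tested B cell markers was called by limma (2 at an unadjusted p under 0.05). Of 5 listed NK markers only Klrk1 and Klrd1 were tested, and both rose. Ncr1 and Klra8 were below the filter on low values, and Klrb1c had no probe set. Over all tested genes 10.5% were called higher. Of 6 tested T cell markers 4 rose (Cd3d, Cd3e, Cd3g and Thy1), and Cd247 and Cd4 were not called, with Cd4 below WT on both KO arrays. The 6 summed to 81649.8 and 75108 in KO cells, against 54089.9 and 51995 in WT cells, mostly from Cd3d, Cd3g and Thy1 (log2 fold change ± SE of Thy1 0.41 ± 0.0989). In RNA of a whole culture, fewer cells of a type and less RNA per cell cannot be told apart, and the part of other cells in the changes of the signalling genes was not tested. Mast cells also express several of these genes, Lat, Lcp2, Fyn and Tec among them.

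The Treg label was checked with 4 genes. Foxp3, the factor that defines Treg cells, had 947 and 1101 in KO cells, against 2177 and 2033 in WT cells, and Ikzf2 had 1161 and 1026 in KO cells, against 1613 and 2069 in WT cells. The receptor genes Il2ra, with 9579 and 11435 in KO cells, against 5666 and 4854 in WT cells, and Ctla4, with 10410.1 and 11252 in KO cells, against 5254 and 5779 in WT cells, were higher in KO cells. All 4 were called, Foxp3 and Ikzf2 as lower in KO cells.

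**Figure D5:**
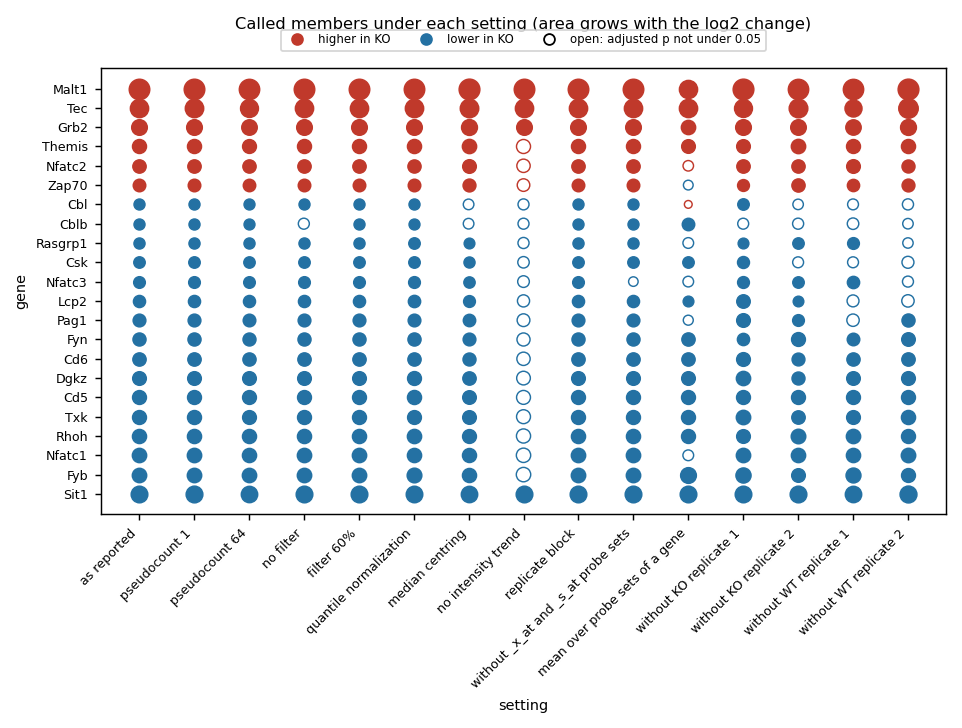
The 22 called members (rows, by log2 fold change) under the reported setting and 14 alternatives (columns). The area of a point grows with the absolute log2 fold change, red is higher and blue lower in KO cells, and open points did not pass an adjusted p of 0.05. Malt1, Tec, Grb2 and Sit1 are filled in every column.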

How the data were processed

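RNA of cultured T cells was measured on 4 Affymetrix arrays, from 6 micrograms of total RNA each, per the labels' protocols. The authors deposited linear intensity values, 1 MAS5 signal per probe set and array, per the submitters' processing notes; its version and settings are not given in the sources used here. This method subtracts mismatch from perfect-match probes, so dim signals vary strongly. The mean without the outer 2% of values on either side is equal between arrays, so a difference in total RNA per cell is removed. No detection calls were used.

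The platform annotation of the 45101 probe sets gives 1 gene for 34958, several for 932 and none for 9211. RefSeq (GRCm38.p6) held 34754 of the gene identifiers and changed 0 symbols. Signals were turned into log2(signal + 16) without the 64 control probe sets, and the dimmest 40% were dropped by their mean, leaving 27022. The contrast KO minus WT was fitted with limma 3.58.1 in R 4.3.3 (lmFit, then eBayes with trend = TRUE), two-sided, with 2 residual and 6.41 prior degrees of freedom. With 2 arrays per group the smallest p of an exact permutation test is 0.333. Precision is limited by how few arrays there are.

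Titles gave the genotype of each array. The members, the lists, the tests and the motifs were chosen with earlier results of these data known. Every member was named, and of the other pathway genes up to 6 called in each direction with the smallest p-value and all receptor genes; the Treg markers were added later, and Nras was named after its values were seen. The arrays carry the numbers 1 and 2 in both groups. Deviations from the group means correlated at r = 0.0103 between KO array 1 and WT array 1, and the numbers were not taken as pairs. Data of this design were simulated with 27022 probe sets, of which 50 were changed at each size. There 24% of changes of 1 and 64% of changes of 2 on the log2 scale were called, and 1 of 80 calls was false. Far more probe sets were called in the real data, so these shares do not carry over to them.

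Alternatives changed the pseudocount (1 or 64), the filter (none or 60%), the scaling (quantile normalization or median centring) and the intensity trend (left out). Others blocked on the array number, omitted probe sets marked _x_at or _s_at, averaged the probe sets of a gene, or omitted each array in turn.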

Additional observations from a re-analysis of the deposited data

How the results depend on the processing

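Of the 22 called members, 4 were called under every one of 14 alternatives, namely Malt1, Tec, Grb2 and Sit1. The choice with the largest effect was the intensity trend of the variance. Without it 3 members were called higher and 1 lower, 3 and 1 of the other pathway genes, and 1183 of 27022 probe sets in place of 4608. This choice changes the variance and not the fold changes, so no direction could change. Averaging the probe sets of a gene left 4 and 11 members, and 2123 of 10916 genes were called. When each array was left out in turn, 6 members were called higher each time and 10 to 16 lower, 7 to 10 and 3 to 10 of the other pathway genes, and 2575 to 4484 probe sets. The lowest counts of members and probe sets came without WT array 2 (10 lower, 2575) and the lowest of the other pathway genes called lower without WT array 1 (3), with 5 without KO array 1 and 4 without WT array 2. Without WT array 1, 11 members were called lower and 2938 probe sets in all.

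The sign changed for Zap70 (-0.27) and Cbl (0.0812), which were called, and otherwise for members that were not called, of which Ubash3a had the largest reported log2 fold change (0.42). With probe sets averaged these were Grap2 (-0.18), Ppp3cb (-0.0653), Ptprc (-0.44), Ubash3a (-0.38) and Ubash3b (-0.23). With median centring it was Was (0.0446). Leaving out single arrays, Grap2 ran between -0.14 and 0.21 (below 0 without KO array 1, where it was -0.14, and without WT array 1, where it was -0.0846). In the same settings Was ran between -0.0857 and 0.0838 (0.0760 and 0.0838 without these arrays) and Ptprc between -0.0755 and 0.16 (-0.0755 and -0.0444), all as log2 fold changes. Fewer arrays or other probe sets enter these settings. For the calls lost without the intensity trend, and for the centring, the cause was not tested.

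With the array number as a replicate block, 6 members were called higher and 16 lower, the same 6 and 16 genes, and the other pathway genes gave 10 and 9 and all probe sets 5382 calls, so the block changed no call of a member. A pseudocount of 64, the filter of 60%, quantile normalization, median centring and the omission of _x_at and _s_at probe sets each added a call of Ubash3a as higher.

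All of this rests on 2 arrays per genotype. The called members that depended on 1 array, Lcp2, Rasgrp1, Nfatc3, Csk, Pag1, Cblb and Cbl, had log2 fold changes between -0.65 and -0.42, and a test on simulated data called 0% of changes of 0.5 when few genes changed.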
